A study of Mus musculus with 23 samples.

Results

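Strand exchange is the step of meiotic recombination in which a broken DNA end invades the homologous chromosome, and the 9 genes described here encode proteins that carry it out. They are grouped by their known function and are 9 of the 18193 genes that the arrays named: Dmc1, Psmc3ip, Mnd1, Brca1, Brca2, Rad51c, Tex15, Rad54l and Rpa1. All 9 were on the array, and each was read from a single probe set, the brightest on average in wild type of those that carry its symbol alone.

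In meiosis the enzyme SPO11 cuts both DNA strands, and the ends are trimmed to single strands that are coated first by replication protein A. Mediator proteins then exchange this coat for recombinase, of which DMC1 is made in meiosis, and the resulting filament searches the homologous chromosome for its match. In the mouse testis this happens in leptotene and zygotene, and the breaks are repaired during pachytene, before the cells pass through diplotene and both divisions to become round spermatids.

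RNA came from testis cells of male mice aged 10 to 16 weeks that had been stained with Hoechst 33342, a dye that binds DNA, and sorted by flow cytometry. Wild-type cells came from C57BL6xDBA2J F1 mice and covered spermatogonia (4 arrays), pre-leptotene (3), leptotene/zygotene (3), early pachytene (1), mid-pachytene (2), late pachytene (1), diplotene (2) and round spermatids (4). Spo11-/- mice, whose strain the labels do not give, supplied 1 array each of spermatogonia, pre-leptotene and leptotene/zygotene cells, with cells of 2 collections, of 4 and 3 mice, put together before RNA purification. Levels are given as log2 of the deposited intensity plus 1, so that a difference of 1 is a doubling, and a level under 4 in every array of a group is called not above background. Wild-type arrays of a fraction are biological replicates by their labels, which do not say whether arrays of different fractions share mice. Nor do they say whether the 3 Spo11-/- arrays, which the genotype test takes as independent, share mice. Precision is limited by how few arrays each group has.

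Median intensity lay between 10.63 and 12.56 on the 23 arrays, and 44.2% to 47.3% of probe sets reached a log2 of 4. The wild-type arrays of the early fractions also carried transcripts of later germ cells. The summed intensity of 8 round spermatid markers was 41539 to 157250 in the arrays labelled spermatogonia, against 93044 to 128068 in round spermatids, and that of 8 markers of pachytene and later cells was 6143 to 24382. In the Spo11-/- arrays the same sums were only 70 to 89 and 750 to 1295. The Spo11-/- pre-leptotene array had a summed level of 8 leukocyte markers of 13554, against 48 to 556 in wild-type pre-leptotene arrays, and of 6 peritubular and stromal markers of 4266, against 584 to 1837. In wild-type spermatogonia these sums were 798 to 2261 (leukocyte) and 1082 to 15644 (peritubular and stromal). The Spo11-/- spermatogonia array had 230 and 152. For 7 Sertoli markers the Spo11-/- sum was 9173 in pre-leptotene, against 1992 to 4757 in wild type. In leptotene/zygotene it was 8760, against 4363 to 6481, and in spermatogonia 2652, within the wild-type range of 2165 to 3398. Of all markers looked at, the Sertoli cell gene Amh and the B cell gene Cd79a lay below a log2 of 4 on every array. What part these admixed transcripts have in the results that follow was not tested. In sorted bulk samples, fewer cells that make a transcript and less of it per cell cannot be told apart.

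Genes whose levels move together or in opposite directions can be looked at through their promoters, so the 300 bases around the start site are shown for Dmc1 and Brca1, whose levels fell from leptotene/zygotene to mid-pachytene, and for Psmc3ip, whose level rose. The sequences are RefSeq's, from build GRCm38.p6, run from 250 bases before to 50 after the start on the strand of the gene, and lie at chr15:79605060-79605359 for Dmc1, chr11:101551906-101552205 for Brca1 and chr11:101095386-101095685 for Psmc3ip, all on the minus strand. Capitals mark every match, on either strand, to a motif of E2F (TTTCCCGC, TTTCGCGC, TTTGCCGC or TTTGGCGC), MYB (TAACNG or CAACNG), STRA8 (CNCCTCAG), CREB/CREM (TGACGTCA) or NF-Y (CCAAT).
Dmc1: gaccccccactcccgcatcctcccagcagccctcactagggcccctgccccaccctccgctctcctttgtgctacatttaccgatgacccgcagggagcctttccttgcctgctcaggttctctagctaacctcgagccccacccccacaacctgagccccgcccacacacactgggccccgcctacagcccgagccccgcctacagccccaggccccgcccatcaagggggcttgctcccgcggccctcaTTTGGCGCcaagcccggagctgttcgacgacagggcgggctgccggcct
Brca1: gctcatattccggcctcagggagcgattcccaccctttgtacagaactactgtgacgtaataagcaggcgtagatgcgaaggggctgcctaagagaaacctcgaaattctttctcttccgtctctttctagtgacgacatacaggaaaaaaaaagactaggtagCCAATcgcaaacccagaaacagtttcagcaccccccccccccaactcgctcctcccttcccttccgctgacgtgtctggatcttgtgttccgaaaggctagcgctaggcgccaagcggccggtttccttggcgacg
Psmc3ip: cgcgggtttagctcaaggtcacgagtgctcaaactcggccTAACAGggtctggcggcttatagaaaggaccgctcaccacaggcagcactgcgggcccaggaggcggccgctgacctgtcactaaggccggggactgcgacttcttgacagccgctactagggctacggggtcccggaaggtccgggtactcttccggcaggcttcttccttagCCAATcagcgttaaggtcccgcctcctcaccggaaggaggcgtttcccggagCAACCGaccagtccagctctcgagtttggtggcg
The Dmc1 window held a single match, the E2F motif TTTGGCGC, which begins 1 base after the start. The Brca1 window also held a single match, the NF-Y motif, 86 bases before the start. Psmc3ip had an NF-Y match 36 bases before the start and MYB matches 210 bases before and 16 bases after it.

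Of the 9 genes, 8 had at least 1 such window, and Rad51c and Rad54l had 2 each. A gene was counted where any of its windows matched, while the shares given beside the counts are per window. E2F motifs occurred in 3 of the 8 (Dmc1, Brca2 and Rad51c), and in 2.26% of the 32851 windows of that length searched. The windows of 1 chromosome, which carries none of the 9 genes, were left out of all shares and of the median. The CREB/CREM motif occurred in 2 of the 8 (Brca2 and Rad51c) and in 1.79% of the windows searched. NF-Y matches were found in 4 of 8 genes (Psmc3ip, Brca1, Rad54l and Rpa1) against 37.4% of windows, MYB matches in 4 of 8 against 49.7%, and STRA8 matches in 0 of 8 against 7.94%. The windows shown were 69.0% (Dmc1), 53.7% (Brca1) and 62.7% (Psmc3ip) G and C, against a median of 52.7% over the windows searched. Such matches occur more easily in some base compositions than in others. They describe the letters and do not show binding. Psmc3ip and Brca1, which moved in opposite directions, lie only 393 kb apart at chr11:101092141-101095435 and chr11:101488761-101551955. Rad51c (chr11:87376645-87404954) and Rpa1 (chr11:75300259-75348454) share that chromosome, so that 4 of the 9 genes are on chromosome 11.

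Over the wild-type course the 9 genes fell into 3 groups by the tests they passed, within which courses differed. With the probe sets used, Dmc1, Brca1, Tex15 and Rad54l were at their highest in the early fractions and fell at 2 steps each from leptotene/zygotene on. Of these, Brca1 and Tex15 rose again from diplotene to round spermatids. Psmc3ip rose from leptotene/zygotene to mid-pachytene, and the other 4 passed no test between neighbouring fractions. The span between the highest and the lowest of the 8 fraction means was 4.37 for Rad54l, 4.31 for Brca1, 4.26 for Tex15 and 3.37 for Psmc3ip on the log2 scale. It was 1.36 for Brca2, 1.23 for Rpa1 and 0.84 for Rad51c. That of Dmc1 was 6.29 and that of Mnd1 2.15, both of which end in levels not above background on the probe sets used.

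**Figure D1:**
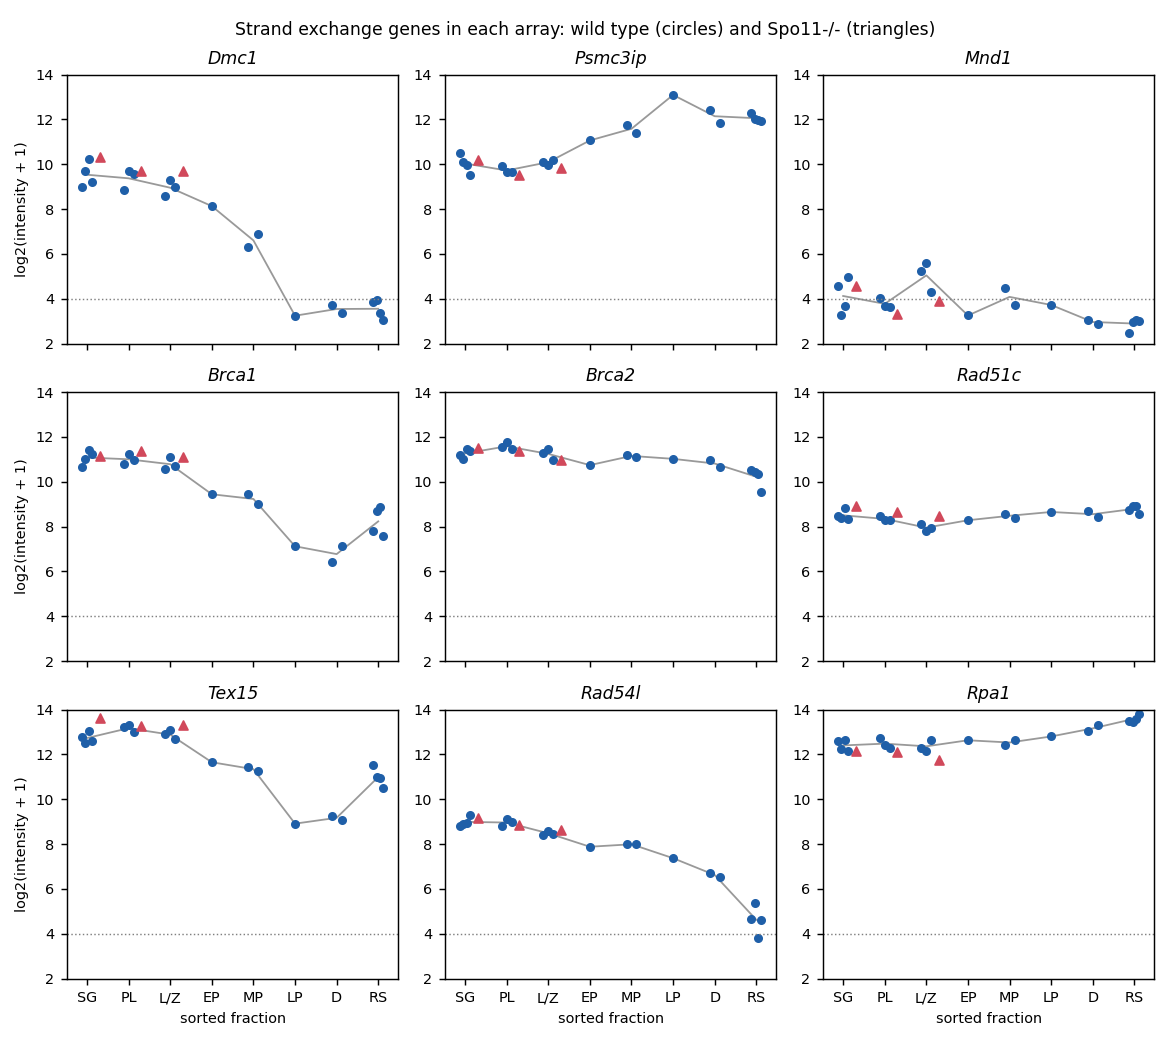
Each panel plots log2(intensity + 1) of a gene (vertical axis) against the sorted fraction (horizontal axis: SG spermatogonia, PL pre-leptotene, L/Z leptotene/zygotene, EP, MP and LP early, mid- and late pachytene, D diplotene, RS round spermatids). Circles are the 20 wild-type arrays, triangles the 3 Spo11-/- arrays, grey lines join the wild-type means, and the dotted line is a log2 of 4. The Dmc1 probe set used drops below the dotted line from late pachytene on, while Psmc3ip climbs to 13.09 in the late pachytene array.

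Dmc1 (chr15:79561497-79605159) encodes the recombinase that forms the filament in meiosis. Its levels were 8.97, 9.71, 10.24 and 9.21 in spermatogonia, 8.86, 9.68 and 9.58 in pre-leptotene, and 8.58, 9.28 and 9.0 in leptotene/zygotene. They were 8.13 in early pachytene, 6.30 and 6.89 in mid-pachytene, 3.24 in late pachytene, 3.73 and 3.36 in diplotene, and 3.86, 3.93, 3.34 and 3.05 in round spermatids. The early fractions overlapped, every mid-pachytene array lay below every earlier array, and all 7 arrays from late pachytene on were not above background with this probe set. From leptotene/zygotene to mid-pachytene Dmc1 fell by 2.36 ± 0.40 (log2 change and its standard error, limma, adjusted p = 0.000626), a 5.12-fold drop. From mid-pachytene to diplotene the log2 change with this probe set was -2.60 or lower, taking the background level of 4 for diplotene (fitted change -3.05 ± 0.44, limma, adjusted p = 0.000194). The other probe set of Dmc1, 1420335_at, fell less, with means of 7.70 in leptotene/zygotene, 6.23 in mid-pachytene and 5.56 in diplotene, and read 5.29 to 5.79 from late pachytene on, above the background level. With the mean over both probe sets the change to diplotene was -1.86, the smallest fall in any alternative, and the call was kept.

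Psmc3ip and Mnd1 encode HOP2 and MND1, which form a heterodimer that stabilises the filament and helps it to capture the homologous DNA. Psmc3ip read 10.51, 10.10, 9.97 and 9.53 in spermatogonia, 9.90, 9.63 and 9.64 in pre-leptotene, and 10.12, 9.96 and 10.18 in leptotene/zygotene. It then read 11.06 in early pachytene, 11.76 and 11.41 in mid-pachytene, 13.09 in late pachytene, 12.44 and 11.85 in diplotene, and 12.27, 12.03, 11.95 and 11.93 in round spermatids. Every array from early pachytene on lay above every earlier array, and diplotene and round spermatids overlapped. The rise from leptotene/zygotene to mid-pachytene was 1.50 ± 0.28 on the log2 scale, 2.82-fold (limma, adjusted p = 0.00123). The change from mid-pachytene to diplotene was 0.56 ± 0.31 (limma, adjusted p = 0.218), with a 95% interval from -0.09 to 1.21. Means of the other probe set were 10.00 in leptotene/zygotene, 11.97 in mid-pachytene and 12.67 in diplotene.

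Mnd1 (chr3:84087933-84155798), the partner of HOP2 in the heterodimer, was near background throughout, with a level below 4 in 15 of the 23 arrays. It read 4.57, 3.27, 3.68 and 4.95 in spermatogonia, 4.03, 3.66 and 3.63 in pre-leptotene, and 5.22, 5.59 and 4.29 in leptotene/zygotene. Later levels were 3.25 in early pachytene, 4.46 and 3.70 in mid-pachytene, 3.72 in late pachytene, 3.06 and 2.86 in diplotene, and 2.48, 2.97, 3.07 and 3.02 in round spermatids. The 3 leptotene/zygotene arrays lay above the 3 pre-leptotene arrays and overlapped with spermatogonia and mid-pachytene. The change from pre-leptotene to leptotene/zygotene was 1.27 ± 0.41 and did not pass the test (limma, adjusted p = 0.121), although it did with array weights (1.43, adjusted p = 0.0167). Mnd1 had a single probe set, and its course correlated with that of Psmc3ip at a Pearson r of -0.54 over the 8 fraction means.

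Brca1 (chr11:101488761-101551955) encodes a protein that acts in end trimming and, through a partner, helps to bring BRCA2 to breaks. Its levels were 10.65, 11.01, 11.41 and 11.23 in spermatogonia, 10.80, 11.22 and 10.99 in pre-leptotene, and 10.55, 11.09 and 10.71 in leptotene/zygotene. They were 9.44 in early pachytene, 9.46 and 9.01 in mid-pachytene, 7.12 in late pachytene, 6.42 and 7.12 in diplotene, and 7.81, 8.69, 8.85 and 7.58 in round spermatids. Mid-pachytene lay below every earlier fraction except early pachytene, diplotene was lower still, and all 4 round spermatid arrays lay above both diplotene arrays and below both mid-pachytene arrays. Brca1 fell by 1.55 ± 0.38 from leptotene/zygotene to mid-pachytene (limma, adjusted p = 0.00637), and fell by 2.47 ± 0.42 from mid-pachytene to diplotene (adjusted p = 0.000632). From diplotene to round spermatids it rose by 1.47 ± 0.36 (limma, adjusted p = 0.00648).

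These Brca1 calls rested on the probe set used. The log2 changes over the 3 steps were -1.19 (adjusted p = 0.178), -0.90 (adjusted p = 0.413) and 0.76 (adjusted p = 0.433) with the mean over its probe sets in limma. They were -2.02 (adjusted p = 0.176), -0.97 (adjusted p = 0.636) and 1.20 (adjusted p = 0.473) with its most variable probe set. Probe sets 1424630_a_at and 1451417_at of Brca1 and 1423026_at of Rad51c were lowest in the array numbered 1 in all 6 wild-type fractions with at least 2 arrays. Their mean range within a fraction was 2.82, 2.20 and 3.19 on the log2 scale, against 0.69 for the Brca1 probe set used and 0.31 for that of Rad51c. Without the arrays numbered 1, the fall of Brca1 from leptotene/zygotene to mid-pachytene kept its call, while that to diplotene became -1.89 (limma, adjusted p = 0.0853) and the rise to round spermatids 1.26 (adjusted p = 0.145). Without the second mid-pachytene array the first fall was -1.32 (adjusted p = 0.0945), and without the first diplotene array the rise was 1.12 (adjusted p = 0.127).

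**Figure D2:**
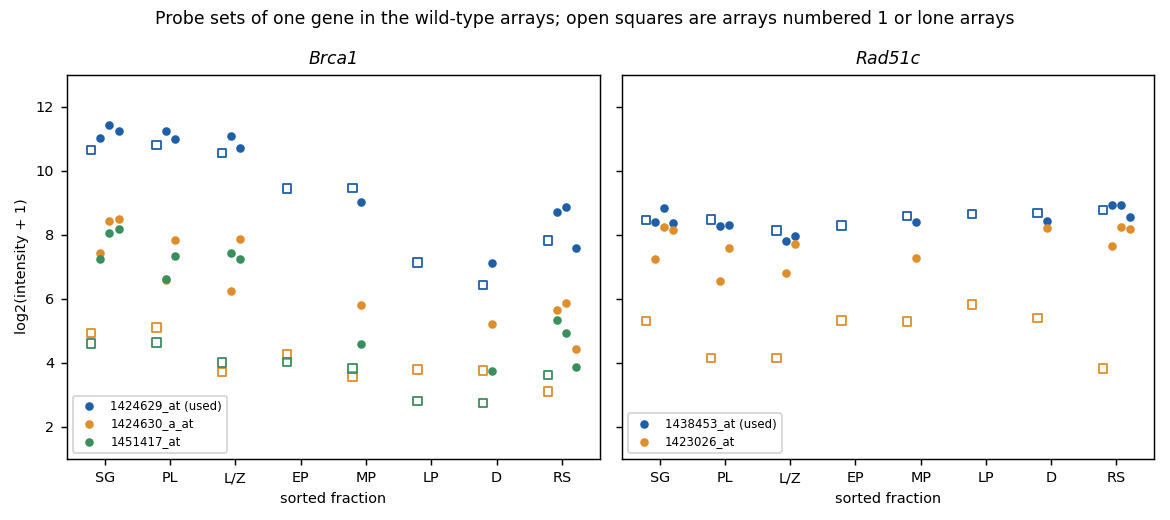
log2(intensity + 1) of 3 Brca1 probe sets (left) and 2 Rad51c probe sets (right) in each wild-type array, by sorted fraction (abbreviated as in the plot of levels). Open squares are arrays numbered 1 or lone arrays, filled circles the others, and colours separate probe sets. The open squares of the probe sets not used lie lowest in each of the 6 fractions with at least 2 arrays, while the probe sets used show ranges of 0.69 and 0.31 on average.

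Brca2 (chr5:150522297-150570147) encodes the mediator that loads recombinase onto single-stranded DNA. Its levels were 11.18, 11.02, 11.48 and 11.37 in spermatogonia, 11.53, 11.76 and 11.46 in pre-leptotene, and 11.29, 11.48 and 10.97 in leptotene/zygotene. They were 10.74 in early pachytene, 11.18 and 11.11 in mid-pachytene, 11.02 in late pachytene, 10.95 and 10.67 in diplotene, and 10.54, 10.44, 10.35 and 9.56 in round spermatids. The round spermatid arrays were the 4 lowest, and pre-leptotene, spermatogonia, leptotene/zygotene and mid-pachytene, in that order of means, each overlapped with the next. The change from diplotene to round spermatids was -0.59 ± 0.27 (limma, adjusted p = 0.127). Between leptotene/zygotene and mid-pachytene, where Dmc1 fell, the change of Brca2 was -0.10, with a 95% interval from -0.71 to 0.51 (limma, adjusted p = 0.844).

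Rad51c encodes a protein that takes part in filament formation. It read 8.46, 8.38, 8.83 and 8.35 in spermatogonia, 8.47, 8.27 and 8.29 in pre-leptotene, and 8.12, 7.79 and 7.95 in leptotene/zygotene. It read 8.28 in early pachytene, 8.58 and 8.38 in mid-pachytene, 8.65 in late pachytene, 8.68 and 8.43 in diplotene, and 8.76, 8.92, 8.93 and 8.55 in round spermatids. Leptotene/zygotene held the 3 lowest of the 20 wild-type arrays with the probe set used. Every other pair of neighbours in the order of means overlapped. The change from spermatogonia to leptotene/zygotene was -0.55 ± 0.19 (limma, adjusted p = 0.135) and that from leptotene/zygotene to mid-pachytene 0.52 ± 0.23 (adjusted p = 0.0895). Probe set 1423026_at had a Pearson r of 0.05 to the probe set used over the 20 wild-type arrays. Its values carry the low arrays numbered 1 described above, so they do not show whether its course differs. The lowest fraction mean of 1423026_at, 5.31, was that of the lone early pachytene array, and its lowest array, at 3.82, was round spermatid array 1. The leptotene/zygotene mean of 1423026_at, 6.21, lay above its pre-leptotene mean of 6.09.

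Tex15 (chr8:33516689-33592503) encodes a large germ cell protein needed for loading DMC1. It read 12.76, 12.51, 13.04 and 12.61 in spermatogonia, 13.20, 13.29 and 13.01 in pre-leptotene, and 12.90, 13.07 and 12.69 in leptotene/zygotene. Later it read 11.65 in early pachytene, 11.44 and 11.24 in mid-pachytene, 8.91 in late pachytene, 9.27 and 9.07 in diplotene, and 11.51, 10.99, 10.96 and 10.50 in round spermatids. Late pachytene and diplotene held the 3 lowest arrays, and round spermatids, all above these, overlapped with mid-pachytene. Tex15 fell by 1.54 ± 0.28 from leptotene/zygotene to mid-pachytene (limma, adjusted p = 0.000916) and fell by 2.17 ± 0.30 from there to diplotene (adjusted p = 0.00016). It rose by 1.82 ± 0.26, 3.53-fold, from diplotene to round spermatids (limma, adjusted p = 0.000132).

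Rad54l (chr4:116094261-116123700) encodes RAD54, a motor protein that works with the filament during strand invasion. It read 8.81, 8.89, 8.95 and 9.30 in spermatogonia, 8.79, 9.11 and 8.98 in pre-leptotene, and 8.41, 8.59 and 8.45 in leptotene/zygotene. It read 7.88 in early pachytene, 7.98 and 8.01 in mid-pachytene, 7.37 in late pachytene, 6.71 and 6.52 in diplotene, and 4.67, 5.39, 3.80 and 4.60 in round spermatids. From pre-leptotene on, no 2 neighbours in the order of means overlapped, and the 4 round spermatid arrays were the lowest. Rad54l fell by 2.00 ± 0.32, 3.99-fold, from diplotene to round spermatids (limma, adjusted p = 0.000293), a call that ended without the arrays numbered 1 (-1.92, adjusted p = 0.0516). From mid-pachytene to diplotene it fell by 1.38 ± 0.37 (limma, adjusted p = 0.0131). It lost its call without the first mid-pachytene array (adjusted p = 0.0703), the second (0.0509) or the second diplotene array (0.0888). With the mean over its probe sets the change was -0.61 (limma, adjusted p = 0.166). Probe sets 1423123_at and 1423124_x_at of Rad54l were highest not in the early fractions but in late pachytene, at 7.52 and 7.29, with means of 6.74 and 6.09 in leptotene/zygotene, 6.69 and 6.37 in mid-pachytene, 6.30 and 5.87 in diplotene and 4.77 and 4.36 in round spermatids.

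Rpa1 encodes the largest subunit of replication protein A, the complex that coats single-stranded DNA in replication as well as in recombination. It read 12.58, 12.22, 12.64 and 12.17 in spermatogonia, 12.73, 12.44 and 12.28 in pre-leptotene, and 12.28, 12.17 and 12.63 in leptotene/zygotene. It read 12.63 in early pachytene, 12.41 and 12.66 in mid-pachytene, 12.80 in late pachytene, 13.04 and 13.29 in diplotene, and 13.51, 13.46, 13.58 and 13.80 in round spermatids. With the probe set used, the 5 fractions up to mid-pachytene overlapped, and late pachytene, diplotene and round spermatids followed above them without overlap. The steps from mid-pachytene to diplotene, 0.63 ± 0.27 (limma, adjusted p = 0.108), and from there to round spermatids, 0.42 ± 0.23 (adjusted p = 0.208), did not pass the test. The other probe set, 1423293_at, had means of 11.55 in mid-pachytene, 12.24 in diplotene and 12.59 in round spermatids, but its ranges overlapped. Late pachytene, at 11.62, lay below arrays of spermatogonia (11.89) and mid-pachytene (11.84). Round spermatid array 1, at 11.94, lay below both diplotene arrays (12.03 and 12.44).

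Counted by step, a gene was called where its adjusted p, Benjamini-Hochberg over all genes tested in limma, was below 0.05 and its log2 change at least 1 in size. Neighbouring steps share the arrays of the fraction between them. From spermatogonia to pre-leptotene 0 of the 9 genes were called, and 0 had an unadjusted p below 0.05 in limma. Of all 13087 genes, 1.70% were called and 1383 had an unadjusted p below 0.05 in limma. With the replicate number as a block the count for the 9 genes was again 0, while that for all genes went from 223 to 627. From pre-leptotene to leptotene/zygotene 0 of 9 were called, against 3.11% of all genes. In limma 1 of the 9 had an unadjusted p below 0.05, against 1612 of 13087 genes. From spermatogonia to leptotene/zygotene, over both steps, 0 of 9 were called, against 3.04%. In limma 2 of the 9 had an unadjusted p below 0.05, against 2199 of 13087 genes. Spermatogonia arrays 1 and 2 had the highest sums of spermatid markers, and without them the counts of the comparisons with spermatogonia were again 0.

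From leptotene/zygotene to mid-pachytene 4 of 9 were called, 3 lower and 1 higher, against 29.3% of all genes, 15.2% lower and 14.2% higher. The count over all genes rested on 1 array, going from 3839 of 13087 to 1466 of 13081 without mid-pachytene array 2, where 3 of the 9 were called. The median log2 change of the 9 was -0.49, and that of all genes -0.07. From mid-pachytene to diplotene 4 of 9 were called, all lower, against 21.5% of all genes and 14.5% lower. The medians were -1.12 for the 9 genes and -0.01 for all genes. From diplotene to round spermatids 3 of 9 were called, 2 higher and 1 lower, against 24.4% of all genes, 12.5% higher and 12.0% lower, and the medians were 0.01 and -0.01. Summed levels of the 8 markers of pachytene and later cells moved with the first of these steps, from 15102 to 36331 in leptotene/zygotene to 80242 to 113369 in mid-pachytene, and their part in the changes was not tested.

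**Figure D3:**
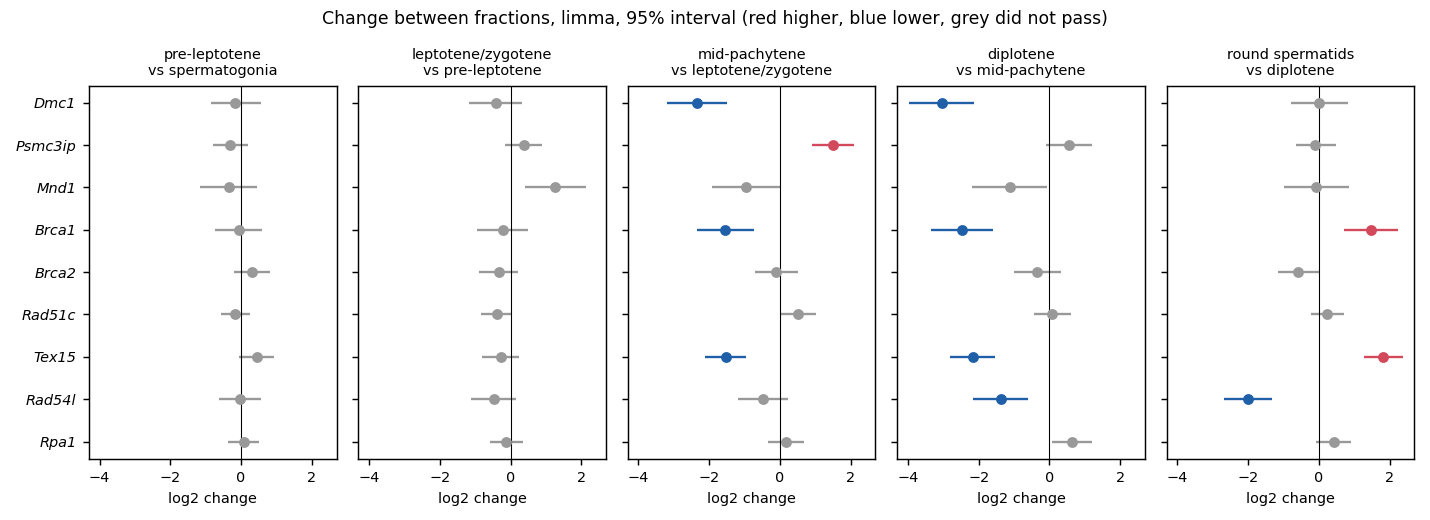
Log2 change of each of the 9 genes (horizontal axis) at each of the 5 steps between wild-type fractions with at least 2 arrays, as points with 95% intervals from limma. Blue points were called lower, red points called higher and grey points did not pass; the fall of Dmc1 to diplotene is drawn as fitted, while its bound with the probe set used is -2.60. No point is coloured in the first 2 panels, and Psmc3ip is the only gene called higher before the last.

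Set against each other over the 8 wild-type fraction means, which come from shared arrays and a shared normalization, Brca1 and Tex15 had a Pearson r of 0.98, Dmc1 and Brca1 0.96, Dmc1 and Tex15 0.92, and Brca2 and Rad54l 0.92. Dmc1 and Psmc3ip had an r of -0.95, and Rad54l and Rpa1 -0.97. The genes outside the group with the highest r were Cnih1, Nme4 and Gnb5 for Dmc1 (0.999 each), Palm (0.998), Phka2 and Tipin (0.996 each) for Tex15, and Dek and Bend3 (0.997 each) and Morf4l2 (0.994) for Brca1. For Rad54l they were Ap1ar and Pwp2 (0.997 each) and Timeless (0.996), for Psmc3ip Ndufc1 (0.996), Chchd6 (0.992) and Eif3k (0.989), and for Rpa1 Msr1 and Cmtm1 (0.992 each) and Slc1a2 (0.991). The values were lower for Brca2, with Cfl2 at 0.986, Mnd1, with Trim12c at 0.975, and Rad51c, with Crebzf at 0.935. With 8 points and all genes past the filter searched, such values describe the shape of a course and no more.

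Spo11 itself is the gene deleted in the mutant, and its product makes the breaks on which the 9 genes act. In wild type it read 4.60, 6.69, 5.74 and 6.69 in spermatogonia, 4.61, 7.03 and 6.23 in pre-leptotene, and 7.42, 8.73 and 8.95 in leptotene/zygotene. The Spo11-/- arrays read 4.30, 4.80 and 5.21 in the same order, so that those of spermatogonia and leptotene/zygotene lay below every wild-type array and that of pre-leptotene lay within their range. The change was -1.97 ± 0.59 (limma with fraction and genotype as terms, adjusted p = 0.0406). That call ended for 9 of the 13 arrays when each was left out in turn, all 3 Spo11-/- arrays among them, with an adjusted p of up to 0.241. Where the probes lie relative to the deleted part is not given in the sources used here, so the gene is a limited check of the labels.

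Without SPO11, 0 of the 9 strand exchange genes were called, against 11.7% of all 11980 genes tested. In limma 4 of the 9 had an unadjusted p below 0.05, as did 3701 of the 11980. Dmc1 read 10.32, 9.71 and 9.71 in Spo11-/- spermatogonia, pre-leptotene and leptotene/zygotene, each above every wild-type array of its fraction. The margin in pre-leptotene was small, with the highest wild-type array at 9.68. Its change was 0.63 ± 0.28, with a 95% interval from 0.03 to 1.24 (limma, adjusted p = 0.146). Rad51c, at 8.90, 8.65 and 8.46, also lay above every wild-type array in each fraction, with a change of 0.40 ± 0.16 and an interval from 0.06 to 0.74 (adjusted p = 0.101). With its most variable probe set, 1423026_at, the change of Rad51c was 1.70 and did not pass the test either. On that probe set the early wild-type arrays numbered 1 read only 5.3, 4.14 and 4.15, and the others 6.55 to 8.24. With the probe set used, Rpa1, at 12.14, 12.10 and 11.77, lay below every wild-type array in each fraction. Its change was -0.41 ± 0.18, with an interval from -0.79 to -0.02 (limma, adjusted p = 0.14). The other Rpa1 probe set, 1423293_at, read 11.28, 11.14 and 10.88. In spermatogonia and pre-leptotene it lay within the wild-type range, and in leptotene/zygotene just below the lowest array, 10.89. The other Dmc1 probe set, 1420335_at, lay within the wild-type range in leptotene/zygotene (8.0, against 6.76 to 8.42) and above it in the earlier fractions. For reference, 6.45% of all genes lay above every wild-type array in all 3 fractions, and 15.5% below.

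Tex15 read 13.62, 13.27 and 13.33 in the Spo11-/- arrays, above every wild-type array in spermatogonia and leptotene/zygotene and within their range in pre-leptotene. Its change was 0.49 ± 0.18, with an interval from 0.08 to 0.89 (limma, adjusted p = 0.0956). Brca1 read 11.14, 11.38 and 11.10 there, with a change of 0.25 and an interval from -0.17 to 0.67 (limma, adjusted p = 0.413). The change was 1.44, again not called, with its most variable probe set, 1451417_at. On that probe set the early wild-type arrays numbered 1 read only 4.59, 4.63 and 4.0, and the others 6.6 to 8.16. For Brca2, at 11.50, 11.36 and 10.95, the change was -0.08, with an interval from -0.47 to 0.30 (limma, adjusted p = 0.779).

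The partners of DMC1 in homolog capture showed no called change either. Psmc3ip read 10.19, 9.53 and 9.83 in the Spo11-/- arrays, with a change of -0.09 and an interval from -0.52 to 0.34 (limma, adjusted p = 0.799). Its change ran from -0.26 to 0.53 over the alternatives and was called in none. With the probe set used, the Spo11-/- array lay within the wild-type range in spermatogonia. In pre-leptotene and leptotene/zygotene it lay below every wild-type array (lowest 9.63 and 9.96). The other probe set, 1425271_at, read 10.54 and 9.93 in Spo11-/- spermatogonia and pre-leptotene, above every wild-type array (highest 10.05 and 9.58). In leptotene/zygotene it read 10.12, within the wild-type range. Rad54l read 9.14, 8.84 and 8.64, with a change of 0.06 and an interval from -0.28 to 0.40 (limma, adjusted p = 0.816). Over the alternatives its change ran from -0.37 to 0.15 and was called in none. Mnd1 read 4.58, 3.32 and 3.91, with a change of -0.35 and an interval from -1.21 to 0.51 (limma, adjusted p = 0.579). In leptotene/zygotene its Spo11-/- array was below 4 while the wild-type arrays were 5.22, 5.59 and 4.29.

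Counted over the 9 genes in single fractions, the Spo11-/- array of spermatogonia lay above every wild-type array for 4 (24.5% of all genes) and below for 1 (29.3%). That of pre-leptotene lay above for 3 (27.4%) and below for 4 (42.9%), and that of leptotene/zygotene above for 5 (27.9%) and below for 4 (36.1%). A difference between fractions in the effect of genotype was called for 0 of the 9 genes, against 2.02% of all genes. In limma 0 of the 9 had an unadjusted p below 0.05, against 1319 of 11980 genes. The median change was 0.06 for the 9 genes and -0.05 for all genes. Leaving out the pre-leptotene fraction, whose Spo11-/- array carried leukocyte markers, gave changes of 0.77 for Dmc1, 0.45 for Rad51c, 0.67 for Tex15 and -0.42 for Rpa1, and 0 of 9 calls. The part of the later germ cell transcripts, present in the wild-type arrays and near background in the Spo11-/- arrays, was not tested.

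**Figure D4:**
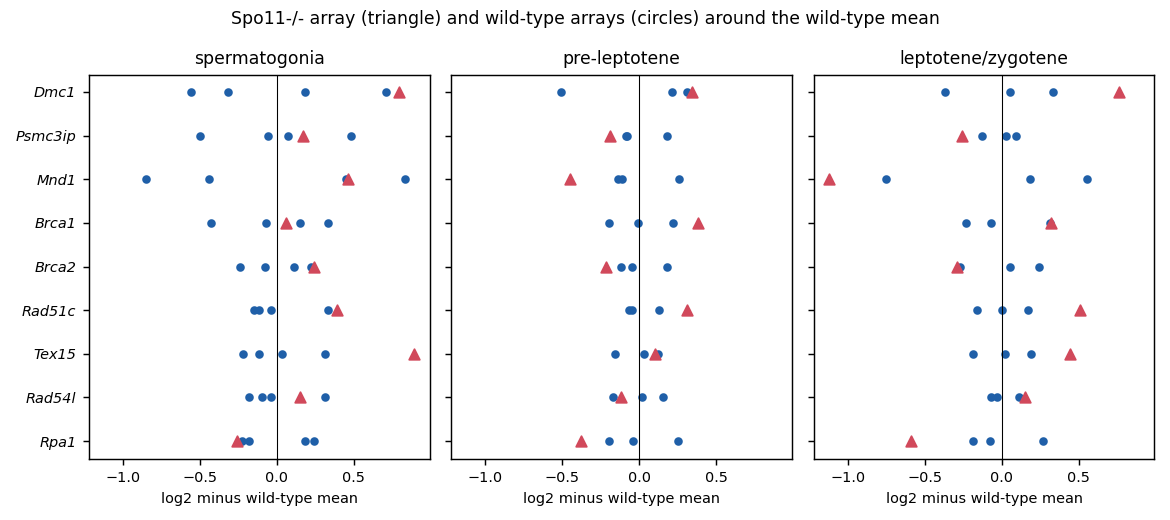
Level of each gene minus its wild-type mean in the fraction (horizontal axis, log2) in spermatogonia, pre-leptotene and leptotene/zygotene. Circles are wild-type arrays and triangles the single Spo11-/- array. With the probe sets used, the triangles of Dmc1 and Rad51c lie to the right of every circle in all 3 panels. Those of Rpa1 lie to the left, and 0 of the 9 genes passed the test.

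Other genes of homologous recombination were taken from a list of 31, of which 25 were on the array and 24 were tested in wild type. From spermatogonia to leptotene/zygotene 1 was called, against 3.04% of all genes: Meiob, whose product binds single-stranded DNA in meiosis. It read 4.21, 3.84, 4.51 and 3.91 in spermatogonia and 8.13, 9.62 and 6.25 in leptotene/zygotene, a rise of 3.88 ± 0.76 (limma, adjusted p = 0.0164). The call ended without the second leptotene/zygotene array (adjusted p = 0.0871), without the arrays numbered 1 (0.195) and without spermatogonia arrays 1 and 2 (0.0927). At the steps from spermatogonia to pre-leptotene and from there to leptotene/zygotene 0 of the 24 were called, against 1.70% and 3.11% of all genes. In limma 1 and 2 of the 24 had an unadjusted p below 0.05, against 1383 and 1612 of 13087 genes.

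From leptotene/zygotene to mid-pachytene 2 of the 24 were called higher and 4 lower, against 29.3% of all genes called, 14.2% higher and 15.2% lower. Without mid-pachytene array 2 only 1 of the 24 was called, and without leptotene/zygotene array 2, 3. Hsf2bp and 4930432K21Rik (Brme1), whose products form a complex with BRCA2 in meiosis, were the genes called higher. Hsf2bp read 7.67, 7.85 and 8.11 in leptotene/zygotene and 9.29 and 9.56 in mid-pachytene, a rise of 1.55 ± 0.31 (limma, adjusted p = 0.00183). It kept its call without any single array or without those numbered 1, and lost it with the mean over its probe sets (1.20, limma, adjusted p = 0.0504). The rise of 4930432K21Rik, 1.01 ± 0.31 (adjusted p = 0.0214), lost its call without leptotene/zygotene array 2 (adjusted p = 0.0936) or either mid-pachytene array (0.114 and 0.0786).

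The largest falls at that step were those of the helicase gene Brip1, -2.06 ± 0.40 (limma, adjusted p = 0.00159), the nuclease gene Exo1, -1.55 ± 0.47 (adjusted p = 0.0184), and Rpa2, the middle subunit of replication protein A, -1.38 ± 0.50 (adjusted p = 0.0459). Without mid-pachytene array 2 the adjusted p values were 0.0545 for Brip1, 0.209 for Exo1 and 0.175 for Rpa2. That of Exo1 was 0.0588 without leptotene/zygotene array 2, and the call of Rpa2 ended whichever of the 5 arrays was left out.

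At the step to diplotene 1 of the 24 was called higher and 6 lower, against 21.5% of all genes called and 14.5% called lower. The 7 calls became 1 without mid-pachytene array 1 or diplotene array 2, and 4 without diplotene array 1. Rpa2 was at 10.03 and 10.14 in mid-pachytene and 7.78 and 7.59 in diplotene. Its fall was -2.41 ± 0.55 (limma, adjusted p = 0.00527), and the change was -1.64 with its most variable probe set (adjusted p = 0.471) and -2.56 without the arrays numbered 1 (adjusted p = 0.111). Exo1 changed by -1.93 ± 0.51 (limma, adjusted p = 0.0126), with an adjusted p of 0.131 without mid-pachytene array 1 and of 0.214 without diplotene array 2. Rpa3, the smallest subunit of replication protein A, changed by -1.87 ± 0.65 (limma, adjusted p = 0.047), or by -1.08 without mid-pachytene array 1 and -0.88 without diplotene array 2 (adjusted p = 0.414 and 0.478). The fitted rise of Nbn, a gene of the break-sensing MRN complex, was 1.01 ± 0.34 (adjusted p = 0.0433) and lost its call whichever of the 4 arrays was left out. Rpa1, the largest subunit, had a mean 0.63 higher in diplotene than in mid-pachytene and did not pass the test.

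In round spermatids 9 of 24 were called lower than in diplotene and 0 higher, against 24.4% of all genes, 12.0% lower and 12.5% higher. The count was 3, of which 1 was higher, without diplotene array 1, 2 without the arrays numbered 1 and 5 with both fractions fitted alone. Fignl1, encoding a factor that takes recombinases off DNA, read 11.06 and 10.93 in diplotene and 9.19, 9.27, 9.23 and 9.25 in round spermatids. It fell by 1.75 ± 0.22 on the log2 scale (limma, adjusted p = 4.72e-05). Palb2, encoding the protein that links BRCA1 to BRCA2, read 7.24 and 7.00 in diplotene and 5.42, 5.03, 4.52 and 5.54 in round spermatids, and fell by 2.00 ± 0.28 (limma, adjusted p = 0.000101). The change of the helicase gene Helq was -2.23 ± 0.50 (limma, adjusted p = 0.0036), which ended as a call without diplotene array 1 (adjusted p = 0.0715) and without the arrays numbered 1 (0.128). At the same step Brca1 and Tex15 were higher.

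**Figure D5:**
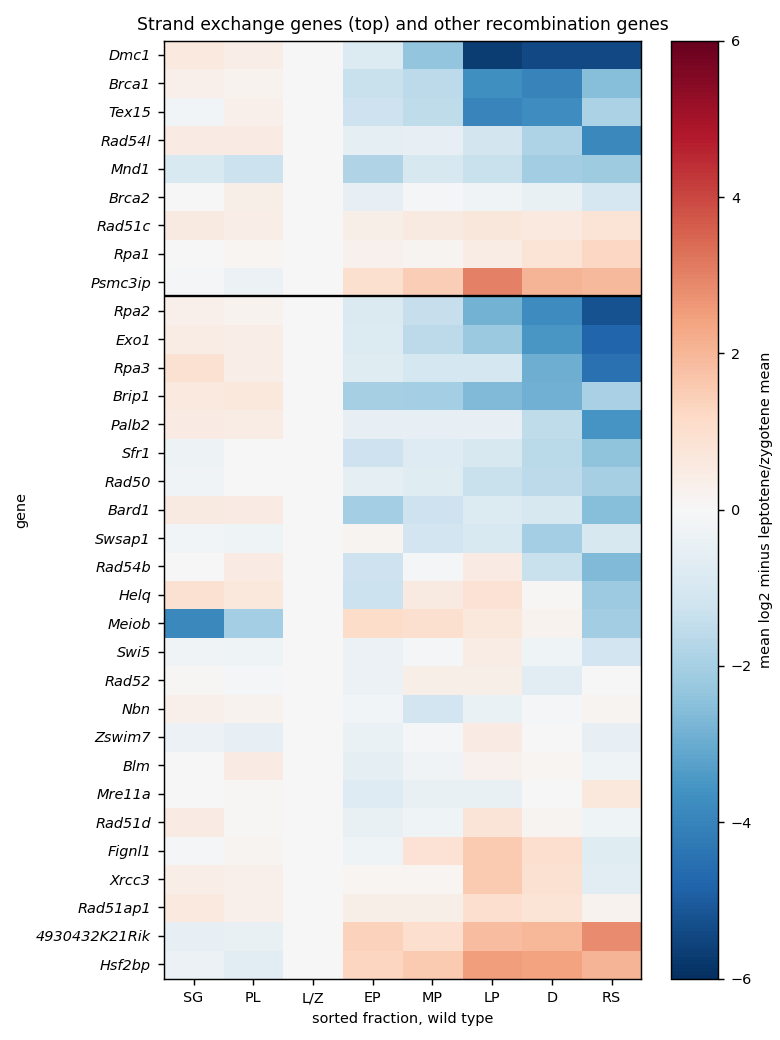
Mean log2 level of each gene in each wild-type fraction minus its mean in leptotene/zygotene (colour scale, blue lower and red higher), for the 9 strand exchange genes above the black line and the 24 other recombination genes below it. Columns are fractions, abbreviated as in the plot of levels. Psmc3ip, Hsf2bp and 4930432K21Rik are red in every column from early pachytene on, and Rpa2 and Exo1 are blue in those columns.

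In the Spo11-/- arrays 2 of the 24 other genes were called, both lower, against 11.7% of all genes. Of all 11980 genes, 1203 were called lower and 195 higher. Swi5, encoding a small partner of recombinases, read 10.39, 10.06 and 10.72 there, below each of the 10 wild-type arrays of the early fractions, of which the lowest was 11.84. Its change was -1.69 ± 0.15, 3.23-fold (limma, adjusted p = 3.78e-05). The BRCA2-complex gene 4930432K21Rik read 6.46, 5.80 and 6.27, with a change of -1.33 ± 0.25 (limma, adjusted p = 0.00465). In wild-type round spermatids the mean of 4930432K21Rik was 10.66, against 7.32 in spermatogonia, and that of Swi5 was 11.10, against 12.03. The part of later germ cell transcripts in the wild-type early arrays was not tested. The calls of Swi5 and 4930432K21Rik were both kept with any single array or any of the 3 fractions left out. Single fractions were tested in a fit on all 23 arrays, in which the lone Spo11-/- array is assumed to vary like the arrays of the other groups. There the change of Swi5 passed in pre-leptotene, but not in spermatogonia (-1.64, limma, adjusted p = 0.0659) or leptotene/zygotene (-1.53, adjusted p = 0.105), and that of 4930432K21Rik did not pass in spermatogonia (-0.86, adjusted p = 0.265). No difference between fractions in the effect of genotype was called for the 24 genes in limma. An unadjusted p below 0.05 was found for 1 of them, against 1319 of 11980 genes.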

How the data were processed

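Groups of the 23 arrays follow the labels. The deposited values are intensities summarised per probe set with GCRMA, per the submitters' processing notes, with version and settings not given in the sources used here; they ran from 1.48 to 107451 and were read as linear. GCRMA shares probe behaviour across arrays and sets a floor that compresses low levels. Of 45037 probe sets, 34945 had exactly 1 gene symbol in the platform table, 932 had several and 9160 were not listed; symbols were updated by Entrez identifier to RefSeq's GRCm38.p6 annotation for 34741, giving 18193 genes. Values were analysed as log2(value + 1).

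Genes with a log2 of at least 4 in at least 2 arrays of the fit went into limma 3.58.1 (R 4.3.3): 13087 genes over the 20 wild-type arrays, with a mean per fraction, and 11980 over the 13 arrays of the 3 early fractions, with fraction and genotype as terms. The lone early and late pachytene arrays entered the first fit and no comparison. The genotype test took the 3 Spo11-/- arrays as independent, and a separate limma F test of fraction by genotype, with wild-type spread, asked whether the effect differed between fractions. Scripts were tested on simulated data.

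The 9 genes, the lists of other recombination genes and markers, and the tests were chosen with earlier results of these data known. Of the other recombination genes, up to 3 with the largest rise and up to 3 with the largest fall among those called were named per comparison, and for each of the 9 genes the 3 genes with the highest Pearson r over the 8 fraction means were looked up. Replicate numbers are in the labels of 18 wild-type arrays. Between spermatogonia and pre-leptotene, deviations from the fraction mean in arrays of equal number had correlations of 0.53, 0.65 and 0.23 over 13087 genes, so a fit with the replicate number as a block was made. Alternatives covered the filter, the probe set, the normalization, the pseudocount, eBayes settings, array weights, the fold minimum, the arrays in the fit and each array left out. Leaving out the arrays numbered 1, or spermatogonia arrays 1 and 2, was chosen after seeing the data.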

Additional observations from a re-analysis of the deposited data

How the results depend on the processing

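The calls of Dmc1, Psmc3ip and Tex15 were kept under every alternative run, and no call of the 9 genes changed direction. Tex15 had a single probe set, so the alternatives of probe set left its values unchanged. The Dmc1 probe set 1420335_at was not tested alone and entered only in the mean over both. Its means of 6.23 in mid-pachytene and 5.56 in diplotene lie less than the fold minimum apart. Counts among the 9 that moved by over 1.5 times were those from mid-pachytene to diplotene, 4 as reported and 2 with the mean over probe sets or without the arrays numbered 1, from diplotene to round spermatids, 3 as reported and 1 without the arrays numbered 1, and from pre-leptotene to leptotene/zygotene, 0 as reported and 1 with array weights. Counts also went from 4 to 3 or from 3 to 2 at all 3 later steps with the most variable probe set, at the first and last of them with the mean over probe sets, at the step to diplotene with array weights, and at the steps to diplotene and to round spermatids with the fractions fitted alone. Those lost calls were of Brca1 or Rad54l. With each array left out in turn the counts were 3 to 5 (leptotene/zygotene to mid-pachytene, 4 as reported), 3 to 4 (to diplotene), 2 to 3 (to round spermatids) and 0 to 0 in the other comparisons. The replicate block gave 4, 4 and 3 calls at these steps and changed no call of the 9 genes. Beyond spermatogonia and pre-leptotene the pairing was not borne out in every pair, with correlations of 0.59, 0.08 and 0.27 between pre-leptotene and leptotene/zygotene and 0.59, -0.24 and -0.27 between spermatogonia and leptotene/zygotene. Counts over all genes moved more. From spermatogonia to pre-leptotene they were 223 as reported, 0 with these fractions fitted alone, 10 without a filter, 54 with a pseudocount of 16 and 830 with array weights. From pre-leptotene to leptotene/zygotene they were 407 as reported, 0 with the fractions fitted alone, 631 with the block and 748 with array weights, and over both steps 398, 16, 1119 and 1229. From mid-pachytene to diplotene 2812 fell to 1108 with the fractions fitted alone and 1138 without the arrays numbered 1, and from diplotene to round spermatids 3199 fell to 1141 without them. The genotype count of 1398 was 810 in spermatogonia alone, and that of fraction-dependent effects, 242, ran from 55 without the arrays numbered 1 to 620 without a filter. The causes of these moves were not tested. Of the other recombination genes, 7 were called at the step to diplotene, 4 with the most variable probe set, the mean over probe sets, a pseudocount of 16 or array weights, 3 with quantile normalization and 1 with the fractions fitted alone. With the block, 3 were called from spermatogonia to leptotene/zygotene (1 as reported), and 4930432K21Rik lost its call from there to mid-pachytene, at 0.94, under the fold minimum (limma, adjusted p = 0.0229). Signal near background limits Mnd1 throughout and the Dmc1 probe set used from late pachytene on.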
